A study of Mus musculus with 2 samples.

Results

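COMPASS complexes are assemblies that place methyl groups on lysine 4 of histone H3 (H3K4), a mark of active chromatin. The forms built on MLL3 and MLL4, encoded by *Kmt2c* and *Kmt2d*, are known chiefly for H3K4 monomethylation at enhancers. The catalytic subunit works with a core that all COMPASS complexes share, made of *Wdr5*, *Rbbp5*, *Ash2l* and *Dpy30*, and with subunits particular to MLL3 and MLL4, among them *Ncoa6*, *Paxip1* and *Pagr1a*. The same assembly holds the H3K27 demethylase encoded by *Kdm6a*, an enzyme of the Jumonji class at which the inhibitor GSK-J4 is aimed. The 9 genes listed by these roles were looked up by symbol among the 17774 genes of the counts. Of the 9, 7 had a row, while no row stood under *Wdr5* or *Pagr1a*. All 7 were among the 15947 genes left by the gene filter, which drops a gene counted in fewer than 3 cells.

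The cells were sorted as cones of *Pde6c*.GFP mice, which came from a cross of the *Pde6c*cpfl1 and Chrnb4.EGFP lines, so that they carry the *Pde6c* mutation and express GFP from the *Chrnb4* promoter. The labels give the strain as C57BL/6. GFP-positive cells were sorted at PN24, 1 cell per well of a 96-well plate, from uninjected retinae and from retinae given a single intravitreal dose of GSK-J4 at PN14, 10 days earlier, to 10 µM in the vitreous. Both groups carried the mutation and the reporter, the control was uninjected rather than sham-injected, and the number of animals was not given in the sources used here. Each condition was 1 library on 1 plate, so plate and treatment cannot be told apart, cells are not replicates, and no p-value is given. The names of the treated cells hold the word adult, whereas the labels give PN24 for both libraries.

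After the cell filter, 82 uninjected cells held 1113424 counts (median 8118 per cell, from 860 to 98250) and 64 GSK-J4-treated cells held 208578 (median 2335.5, from 420 to 15371). Cells stood at 54 well positions on both plates. The GFP sort was checked against 11 cone markers. Their summed share was 2.59% in the uninjected and 0.213% in the treated library, all 82 uninjected cells but 14 of the 64 treated cells had a count of any of them, and *Opn1sw*, *Gngt2*, *Cngb3*, *Pde6c* and *Guca1a* stood at 0 in the treated library. The treated library is therefore called here by its label, not by its cell type. In the treated library 10 of 12 rod markers and 9 of 9 Müller glia markers had a count, at summed shares of 0.0283% and 0.0350%, against 0.361% and 0.113% in the uninjected library. Bipolar cell markers took 0.0115% of the uninjected and 0.0110% of the treated counts, and amacrine cell markers 0.00476% and 0.0125%. Ganglion cell, microglia and retinal pigment epithelium markers, each under 0.01% in both libraries, also had higher shares in the treated library. Cytosolic ribosomal protein genes made up 3.62% of all uninjected counts and 0.235% of treated ones, and mitochondrially encoded genes 1.10% and 0.256%. Fewer cells expressing a gene and less RNA per cell cannot be told apart in sums over a library, and the part of these shares in the differences below was not tested.

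*Kmt2c* lies on the minus strand at chr5:25271798-25498783 and *Kmt2d* on the minus strand at chr15:98831669-98871204 (GRCm38, GENCODE). Among the genes of the core, *Rbbp5* lies on the plus strand at chr1:132477365-132505659, *Ash2l* on the minus strand at chr8:25815996-25847694 and *Dpy30* on the minus strand at chr17:74299474-74323944. *Ncoa6* lies at chr2:155390656-155473894 and *Paxip1* at chr5:27740080-27791691, both on the minus strand. No exon of the 7 shared bases with an exon of another gene that had a row in the counts. The 250 bases upstream of the start of the catalytic pair are printed here from RefSeq (GRCm38.p6), 5′ to 3′ on the strand of the gene, because these 2 genes have the same role in the complex and their counts lay on opposite sides of the uninjected plate. Capitals mark GGGCGG or its reverse complement CCGCCC, the letters of a GC box. The *Kmt2c* window is chr5:25498784-25499033 and the *Kmt2d* window is chr15:98871206-98871455, both on the minus strand.
Kmt2c: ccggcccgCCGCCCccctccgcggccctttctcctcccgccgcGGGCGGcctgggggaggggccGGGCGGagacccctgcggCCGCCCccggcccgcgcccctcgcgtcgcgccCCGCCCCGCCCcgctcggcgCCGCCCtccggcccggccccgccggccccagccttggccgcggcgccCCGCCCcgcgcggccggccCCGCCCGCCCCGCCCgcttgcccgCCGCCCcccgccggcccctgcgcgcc
Kmt2d: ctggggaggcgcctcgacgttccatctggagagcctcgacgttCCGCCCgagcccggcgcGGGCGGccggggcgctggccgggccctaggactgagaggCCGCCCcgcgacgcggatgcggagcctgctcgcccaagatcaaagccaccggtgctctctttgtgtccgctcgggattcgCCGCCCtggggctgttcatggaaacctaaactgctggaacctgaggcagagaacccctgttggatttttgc
The *Kmt2c* window held 12 of these matches, some overlapping, and 48 CG pairs, and the *Kmt2d* window held 4 matches and 26 CG pairs. At least 1 match stood in 32.7% of 32851 RefSeq promoter windows of this length, and the median window held 6 CG pairs. A match describes the letters of the window and is not evidence of binding.

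In uninjected cones the 7 members summed to 410 counts (95% Poisson interval 371 to 452), or 3.68 per 10000 counts of the library. The catalytic pair gave 209 of these. *Kmt2c* had 83 counts in 21 of 82 cells, and *Kmt2d* had 126 counts in 30 cells. Both were therefore absent from most cells at this depth. The shared core gave 173 counts. *Ash2l*, whose product helps to activate the methyltransferase, had 74 counts in 21 cells. *Dpy30*, which binds ASH2L and is needed for full methylation, had 95 counts in 27 cells. *Rbbp5*, a scaffold of the core, had 4 counts in 3 cells. The MLL3/MLL4-specific subunits gave 28 counts. *Paxip1*, encoding the BRCT-domain protein PTIP, had 22 counts in 9 cells, and *Ncoa6*, a nuclear receptor co-activator, had 6 counts in 6 cells, 1 in each. The intervals cover counting error only, and they treat counts as independent.

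The counts were not spread evenly over the cells. The cell in well A4 held 43 of the 74 *Ash2l* counts (58.1%), and the next highest cell held 5. The cell in well C8 held 27 of the 83 *Kmt2c* counts (32.5%), followed by a cell with 14. For *Kmt2d*, wells B2, G4 and G2 held 31, 24 and 17 counts. Each of these 3 cells was in the first 6 columns. For *Dpy30*, well A8 held 18 of the 95 counts (18.9%). That cell had only 1409 counts and 344 genes in all, so that it weighs heavily in any mean over cells scaled to the same total. For the remaining cells low values were the rule. A single count made up the value in 11 of 21 cells with *Kmt2c*, 15 of 30 with *Kmt2d*, 14 of 21 with *Ash2l*, 10 of 27 with *Dpy30* and 5 of 9 with *Paxip1*.

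Few cells held several subunits at once. Among the uninjected cells, 22 had a count of no member, 29 of 1, 16 of 2, 7 of 3, 5 of 4 and 3 of 5 members. No cell had 6 or 7. The median depth was 3778 counts in cells with no member and 36992 in cells with 5, so the number found went with depth. *Kmt2c* and *Kmt2d* were found together in 9 cells, *Kmt2c* alone in 12, *Kmt2d* alone in 21 and neither in 40. Cells with both had a median of 37282 counts. *Ash2l* and *Dpy30*, whose products bind each other, were found together in 10 cells, *Ash2l* alone in 11 and *Dpy30* alone in 17. In GSK-J4-treated cells, 42 had no member, 20 had 1 and 2 had 2. The 2 cells with 2 members held *Dpy30* with *Paxip1* (well B1) and *Kmt2c* with *Ncoa6* (well C12).

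**Figure D1:**
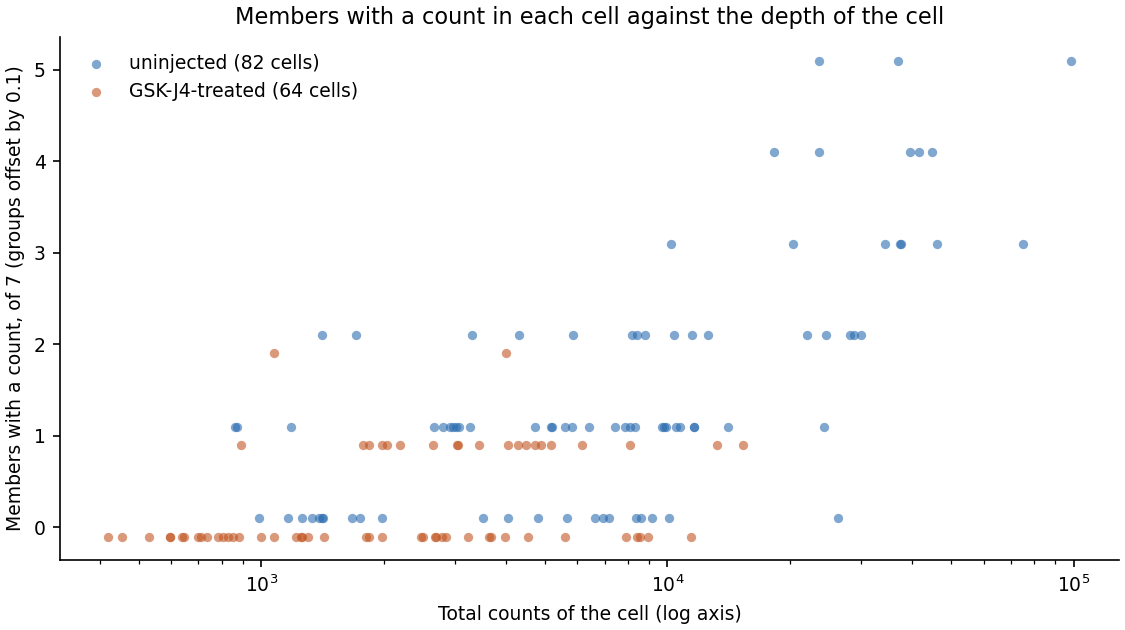
Number of the 7 members with a count in each cell against the total counts of that cell on a log axis, with 82 uninjected cells in blue and 64 GSK-J4-treated cells in orange, offset vertically by 0.1 so that they do not hide each other. Cells with 3 or more members are all uninjected and all have over 10000 counts, and no treated cell exceeds 15371 counts or 2 members.

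The uninjected plate was then split by well column, since its cells are the deeper set and the split compares cells of 1 library. Columns 1 to 6 held 39 cells and 546722 counts (median 8819 per cell), and columns 7 to 12 held 43 cells and 566702 counts (median 7163). What distinguished the sides of the plate during sorting was not given in the sources used here. Cone markers took 2.48% of the counts of the first side and 2.69% of the second, and ribosomal protein genes 4.11% and 3.14%. The 7 members summed to 262 counts on the first side and 148 on the second, a rate ratio of second over first of 0.545 (95% exact interval 0.442 to 0.669). The mean over cells each scaled to 10000 counts ran the other way, at 5.22 on the first and 5.77 on the second side, and the ratio of the sums was 1.08 with every cell thinned to the same depth. The direction of the sum therefore depended on the weight given to each cell.

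The catalytic subunits lay on opposite sides. *Kmt2c* had 12 counts in 4 cells of columns 1 to 6 and 71 counts in 17 cells of columns 7 to 12, a rate ratio of 5.71 (3.07 to 11.6). By column it had 0, 0, 0, 1, 1 and 10 counts in columns 1 to 6 and 0, 35, 4, 5, 5 and 22 in columns 7 to 12. Columns 6 and 7 thus went against the split, with 10 and 0 counts. *Kmt2d* had 103 counts in 19 cells of the first side and 23 counts in 11 cells of the second, a rate ratio of 0.215 (0.131 to 0.341), or 4.64-fold lower on the second. By column it had 1, 51, 6, 26, 4 and 15 counts in columns 1 to 6 and 2, 1, 5, 1, 1 and 13 in columns 7 to 12. In the first side 72 of the 103 counts lay in 3 cells. The natural log-fold, that is the log of the mean of counts per 10000 plus 1 on the second side minus that on the first, was 0.78 for *Kmt2c* and -0.35 for *Kmt2d*. Without the cell that held most counts of the gene on each side, these were 0.48 and -0.26.

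The summed core had a higher rate on the first side, where *Ash2l* and *Dpy30* gave all but 1 of the 138 counts. *Ash2l* had 68 counts in 16 cells of columns 1 to 6 and 6 counts in 5 cells of columns 7 to 12, a rate 11.7-fold lower on the second side (ratio 0.0851, 0.0302 to 0.195). Its log-fold was -0.68, and -0.45 without the highest cell of each side, so the difference did not rest on well A4 alone. *Dpy30* had 69 counts in 19 cells against 26 counts in 8 cells, a rate ratio of 0.364 (0.222 to 0.578). Its log-fold had the other sign, 0.24, with the cell of well A8 holding a scaled count far above those of the other cells. Without the highest cell of each side it was -1.02, and with a minimum of 500 genes per cell it was -0.68. *Rbbp5* had 1 and 3 counts, a ratio of 2.89 (0.232 to 152). The summed core had 138 counts against 35, a rate ratio of 0.245 (0.164 to 0.357). Its mean over cells each scaled to 10000 counts was nearly equal, at 3.40 on the first and 3.25 on the second side, which holds well A8. Without the highest cell of each side the rate ratio was 0.173 (0.0965 to 0.292). Of the MLL3/MLL4-specific pair, *Paxip1* had 6 and 16 counts, with a ratio whose interval included 1 (2.57, 0.956 to 8.03), and *Ncoa6* had 3 and 3.

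**Figure D2:**
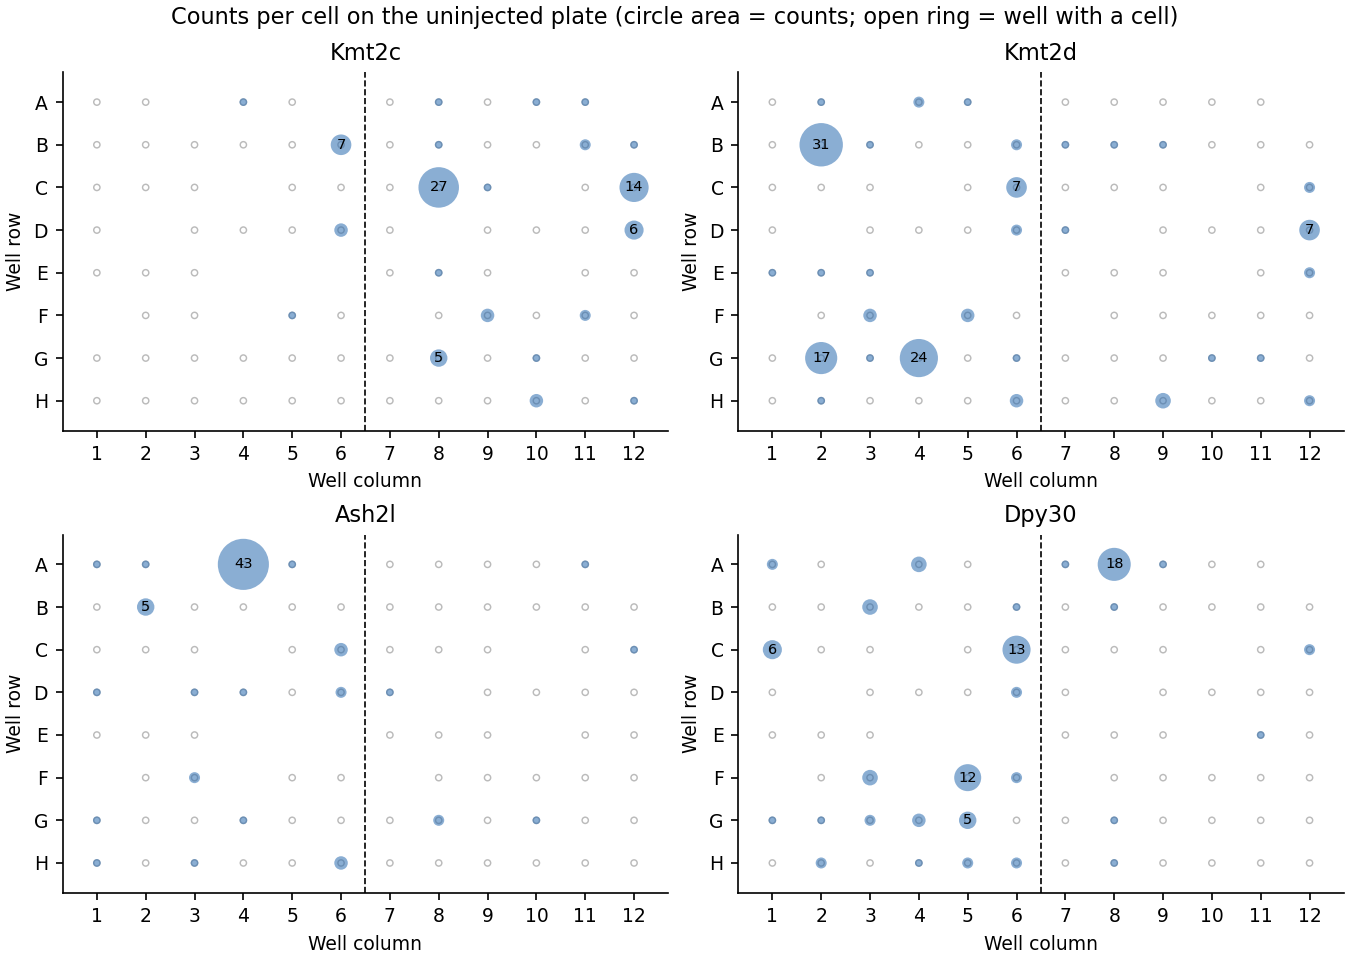
Counts of *Kmt2c*, *Kmt2d*, *Ash2l* and *Dpy30* in each cell of the uninjected plate, drawn by well row (A to H) and column (1 to 12), with circle area proportional to the counts, numbers printed from 5 counts, open rings for wells with a cell and a dashed line between columns 6 and 7. The largest circles are 27 for *Kmt2c* on the right, 31, 24 and 17 for *Kmt2d* on the left, 43 for *Ash2l* on the left, and for *Dpy30* 18 on the right with 13 and 12 on the left.

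A member or gene was compared where 10% or more of the cells on 1 of the sides had a count. Of the 5 members past this detection limit, 2 had a log-fold below -0.3 and 1 above 0.3. Among all 8823 genes past it, 15.9% lay below -0.3 and 14.6% above 0.3. By the rate ratio, 3 of the 5 had an interval below 1 and 1 had an interval above 1, against 24.6% and 22.2% of all genes. Differences of this size were thus common among all genes. On the treated plate the same sides held 17 and 11 member counts (33 and 31 cells), with *Kmt2c* at 3 and 3, *Kmt2d* at 1 and 2, *Ash2l* at 1 and 1, *Dpy30* at 2 and 0, and *Paxip1* at 9 and 2. At these counts no difference between the sides of the treated plate was detectable for the catalytic or core members. *Paxip1* had a lower rate in columns 7 to 12 of that plate (ratio 0.163, 0.0172 to 0.789, log-fold -0.50), where on the uninjected plate its ratio was above 1 with an interval that included 1. Without the highest cell of each treated side the ratio was 0.143 (0.00301 to 1.27).

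In the comparison of the libraries, the 7 members had 28 counts in GSK-J4-treated cells, where 76.8 would be expected at the uninjected rate. The rate was 1.34 per 10000 counts against 3.68, a rate ratio of 0.365 (0.239 to 0.535). With median-ratio size factors the ratio was 0.205 (0.134 to 0.301). These scale the libraries by the median ratio over genes with a count in both, and not by their totals. Genes at 0 in the shallower treated library are left out of that median. Under this scaling the median log-fold of all genes over the detection limit was -0.14. On library totals the groups of subunits differed in direction. The catalytic pair had 9 counts against 209 (ratio 0.230, 0.104 to 0.445), the core had 4 against 173 (0.123, 0.0333 to 0.322), and the MLL3/MLL4-specific pair had 15 against 28 (2.86, 1.42 to 5.54). Of these 15 counts, 11 were of *Paxip1*. The group ratios were not computed with median-ratio size factors, under which the log-fold of *Paxip1* was 0.10. The treated counts of every member but *Paxip1* came 1 to a cell.

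Of the catalytic subunits, *Kmt2d* had 3 counts in 3 treated cells against 126 in 30 uninjected cells, a rate 7.87-fold lower (ratio 0.127, 0.0259 to 0.380) and a log-fold of -0.60, treated minus uninjected. *Kmt2c* had 6 counts in 6 treated cells against 83 in 21 uninjected cells, a rate 2.59-fold lower (ratio 0.386, 0.138 to 0.876) and a log-fold of -0.296, just within the limit of -0.3. Without the highest cell of each library its log-fold was -0.053, and its rate ratio was 0.478 (0.149 to 1.18). Its direction also turned with the side of the plate. Against the uninjected cells of columns 1 to 6 the treated cells of those columns gave 0.28, and in columns 7 to 12 they gave -0.70. *Kmt2d* kept its sign, at -0.82 and -0.36.

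Of the core subunits, *Dpy30* had 2 counts in 2 treated cells against 95 in 27 uninjected cells, a rate ratio of 0.112 (0.0134 to 0.417), and its log-fold of -1.14 was the lowest of the 7. Without the highest cell of each library the log-fold was -0.65. Scaled to the library totals instead of cell by cell it was -0.53. *Ash2l* had 2 counts in 2 treated cells against 74 in 21 uninjected cells, a rate ratio of 0.144 (0.0172 to 0.540) and a log-fold of -0.34. In columns 1 to 6 alone this log-fold was -0.59, and in columns 7 to 12, where the uninjected side had 6 counts, it was -0.01. *Rbbp5* had 4 counts in the uninjected and 0 in the treated library. At the uninjected rate 0.749 counts would be expected there, so a difference was not detectable.

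Of the MLL3/MLL4-specific subunits with a row, *Paxip1* had a higher rate in treated cells, while for *Ncoa6* the interval of the ratio included 1. *Paxip1* had 11 counts in 7 treated cells against 22 in 9 uninjected cells, a rate ratio of 2.67 (1.17 to 5.74) and a log-fold of 0.33. Of the 11 counts, 4 lay in well E2 and 2 in well E1, and without the highest cell of each library the log-fold was 0.27 and the rate ratio 2.32 (0.806 to 5.95). The log-fold was 0.57 in columns 1 to 6, 0.02 in columns 7 to 12 and 0.10 with median-ratio size factors, under which the median log-fold of all genes over the detection limit was -0.14. *Ncoa6* had 4 counts against 6, a ratio of 3.56 with an interval of 0.739 to 15.01. Its log-fold was 0.07, with -0.03 in columns 1 to 6 and 0.17 in columns 7 to 12. *Kdm6a*, not one of the 9, had 9 counts against 7 (ratio 6.86, 2.27 to 21.7). It had a count in 9.4% of treated and 4.9% of uninjected cells, under the detection limit of 10%, and its log-fold was 0.21. In each library 1 cell held 4 of its counts, and without these cells the ratio was 8.29 (1.61 to 53.4).

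**Figure D3:**
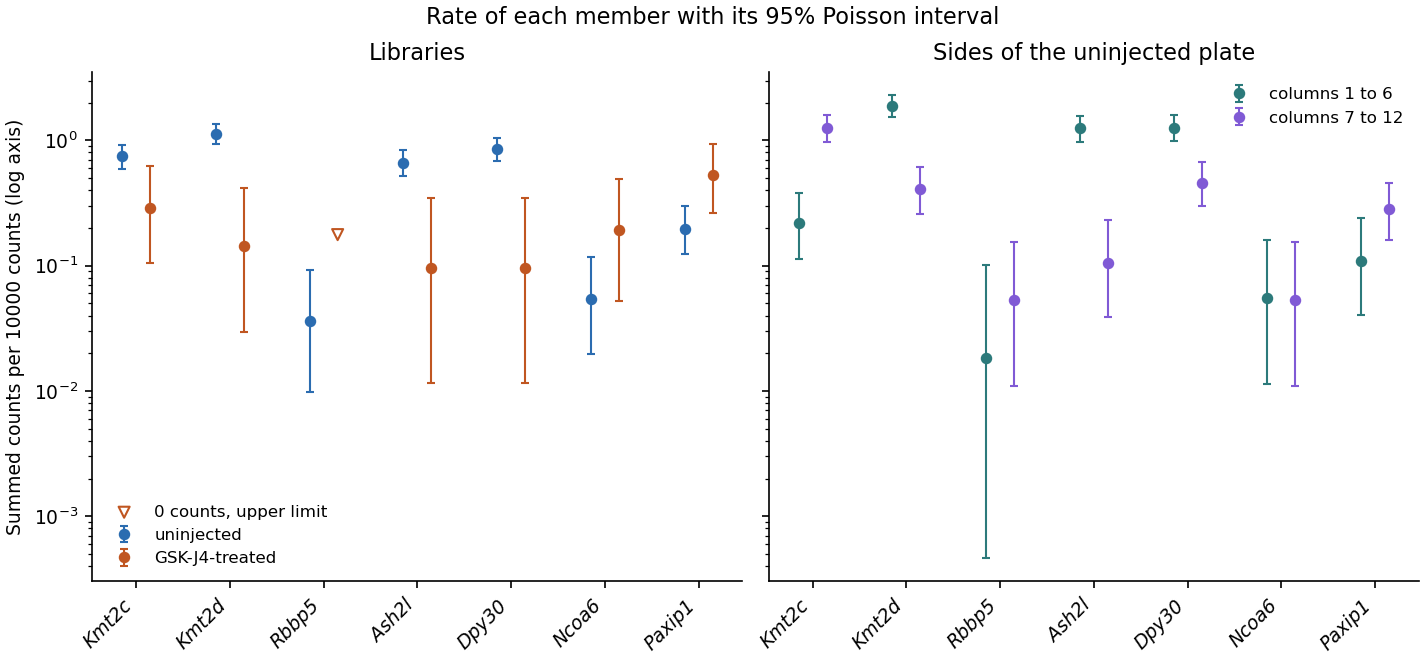
Summed counts of each member per 10000 counts on a log axis with 95% Poisson intervals, on the left for the uninjected and GSK-J4-treated libraries and on the right for both sides of the uninjected plate, where an open triangle marks the upper limit of a member with 0 counts. *Kmt2c*, *Kmt2d*, *Ash2l* and *Dpy30* lie lower in the treated library and *Ncoa6* and *Paxip1* higher, while between the sides *Kmt2c* runs opposite to *Kmt2d*, *Ash2l* and *Dpy30*.

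In the libraries, too, 5 members were over the detection limit of 10% of cells. Of these, 3 (*Kmt2d*, *Ash2l* and *Dpy30*) lay below -0.3 and 1 (*Paxip1*) above 0.3, while of all 7682 genes over the limit 24% lay below -0.3 and 20.4% above 0.3. *Kmt2d*, *Ash2l* and *Dpy30* had a count in 36.6%, 25.6% and 32.9% of uninjected cells and in 4.7%, 3.1% and 3.1% of treated cells. *Kmt2c* had a count in 25.6% and 9.4%. These 4 passed the limit only through the uninjected library, which is deeper and where they are high. The number of members called low is therefore not read as a result. By the rate ratio, 4 of the 5 had an interval below 1 and 1 above 1, against 28.5% and 27.1% of all genes. The median log-fold of the 5 was -0.34, and that of all genes over the limit was -0.005. Since 4 of the 5 passed the limit in that way, neither these intervals nor this median is read as a result about the members. *Kmt2d* and *Dpy30* lay below -0.3 on both sides of the plate taken alone, *Ash2l* on the first side and *Kmt2c* on the second. Within the treated library, the 14 cells with a cone marker count held 8 member counts, 1.16 per 10000 (0.499 to 2.28), and the 50 without held 20, 1.43 per 10000 (0.876 to 2.22). Both rates were below the uninjected rate of 3.68 (3.33 to 4.06), and their intervals overlapped. The cells with a marker count were also deeper, at a median of 3839.5 counts against 1826.5. The part of cell type in these rates was not tested. Of the 8 counts, 4 were of *Paxip1*. The cells without a cone marker count held 139383 of the 208578 treated counts. All 6 treated counts of *Kmt2c*, all 4 of *Ncoa6* and 7 of the 11 of *Paxip1* lay in them.

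**Figure D4:**
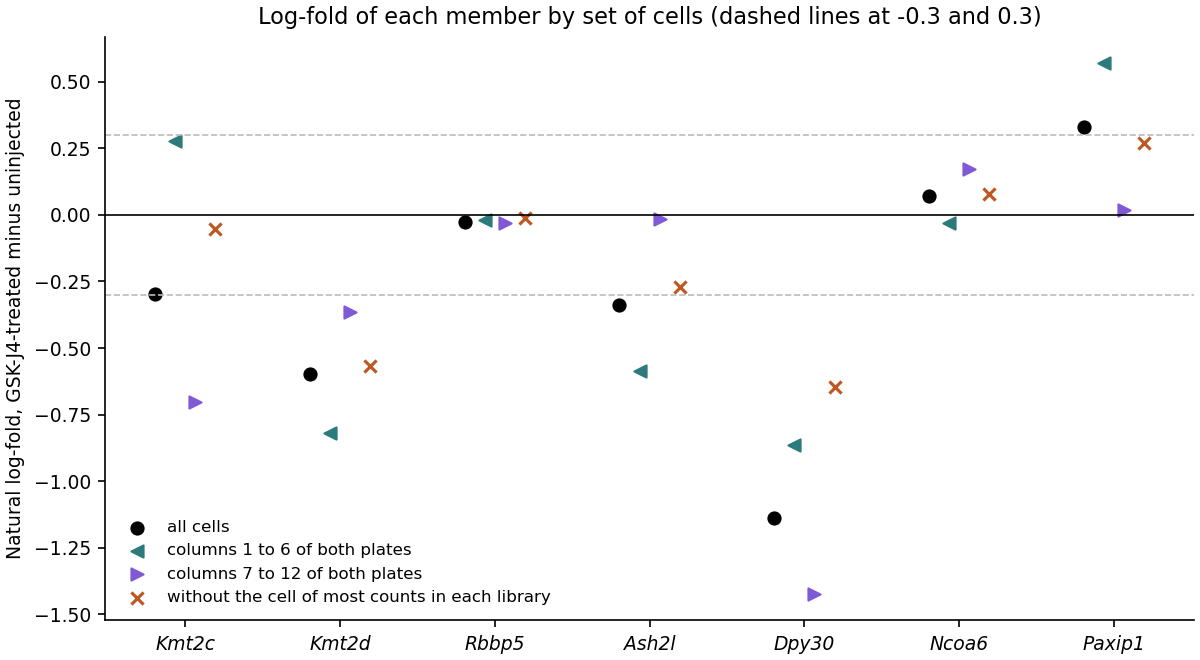
Natural log-fold of each member, GSK-J4-treated minus uninjected cells, from all cells (circles), from columns 1 to 6 of both plates (left triangles), from columns 7 to 12 of both plates (right triangles) and without the cell holding most counts of the gene in each library (crosses), with dashed lines at -0.3 and 0.3. *Kmt2d* and *Dpy30* lie below -0.3 in all 4 sets, *Kmt2c* runs from -0.70 to 0.28, and *Ash2l* and *Paxip1* lie near 0 in columns 7 to 12.

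The share of cells with a count of any member was 73.2% (60 of 82 cells, exact binomial interval 62.2 to 82.4) in the uninjected and 34.4% (22 of 64, 22.9 to 47.3) in the treated library. These shares went with depth. In the uninjected library they were 53.6%, 70.4% and 96.3% in the shallowest, middle and deepest of 3 equal groups of cells, and in the treated library 9.09%, 42.9% and 52.4%. At an equal depth of 867 counts per cell, which left out 1 uninjected and 14 treated cells, the expected shares were 22.9% and 15.6%. For single members the expected shares at this depth were 7.12% and 1.39% for *Kmt2d*, 7.68% and 2.18% for *Dpy30*, 3.94% and 1.26% for *Ash2l*, 4.92% and 5.12% for *Kmt2c*, and 0.953% and 5.42% for *Paxip1*. In the treated library those of *Kmt2d*, *Ash2l* and *Dpy30* amount to about 1 cell of 50, and those of *Kmt2c* and *Paxip1* to 2.56 and 2.71 cells. The uninjected share of *Paxip1* amounts to 0.772 of 81 cells. No change of these genes is therefore read from these shares. On the uninjected plate the shares at equal depth were 1.51% in columns 1 to 6 and 8.09% in columns 7 to 12 for *Kmt2c*. They were 11.0% and 3.47% for *Kmt2d*, 7.54% and 0.603% for *Ash2l*, and 11.7% and 3.96% for *Dpy30*. In expected cells these are 0.588 and 3.40 for *Kmt2c*, 4.31 and 1.46 for *Kmt2d*, 2.94 and 0.253 for *Ash2l*, and 4.56 and 1.66 for *Dpy30*. At so few cells no difference between the sides is read from these shares. Without thinning, *Dpy30* had a count in 19 cells of the first side and 8 of the second, the direction of *Ash2l* and *Kmt2d*.

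The genes around the complex were taken as 4 lists of 25 genes in all, of which 24 were left by the filter and 17 were over the detection limit between the libraries. Of the 17, 1 lay below -0.3 and 6 above 0.3, where 24% and 20.4% of all genes over the limit did. The other COMPASS catalytic subunits had 0 of 2 beyond either limit. *Setd1b*, which places H3K4 trimethylation at promoters, had 526 counts in the uninjected and 147 in the treated library (log-fold 0.21). Among 5 subunits of the other complexes, *Bod1* had 98 and 7 counts (-0.72) and was the 1 below -0.3. Well H9 held 62 of its uninjected counts and well C11 all 7 treated ones, which leaves 36 and 0. Of 4 H3K4 demethylases, 2 lay above 0.3. *Kdm5b*, which removes the H3K4 trimethyl mark, had 135 and 76 counts (0.42), and its X-linked relative *Kdm5c* had 75 and 17 (0.14). Of 6 enhancer co-activators, 4 lay above 0.3. *Ep300*, a histone acetyltransferase of enhancers, had 56 and 34 counts (0.39), and *Ncoa1*, a nuclear receptor co-activator, had 86 and 23 (-0.005). Well E7 held 52 of the 147 treated *Setd1b* counts, well F5 31 of the 76 of *Kdm5b* and well B12 16 of the 34 of *Ep300*. Without the highest cell of each library, the rate ratio of *Setd1b* went from 1.49 (1.23 to 1.79) to 1.14 (0.906 to 1.43). Those of *Kdm5b* and *Ep300* were then 2.16 (1.49 to 3.07) and 2.95 (1.56 to 5.39). With median-ratio size factors 2 of the 17 lay below -0.3 and 2 above 0.3, while of all genes 33.99% lay below and 8.14% above.

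On the uninjected plate, 18 genes of these lists were over the detection limit, 1 with a log-fold below -0.3 and 5 above 0.3 in columns 7 to 12, beside 15.9% and 14.6% of all genes. *Bod1* had 1 count in columns 1 to 6 and 97 in columns 7 to 12, and 0 and 35 without the highest cell of each side. *Ep300* had 14 and 42 counts, 23 of the 42 in 1 cell, and *Kdm5b* had 53 and 82. Without the highest cells their rate ratios were 1.99 (0.834 to 5.27) and 1.43 (0.946 to 2.18), with intervals that included 1. *Setd1b* had 279 and 247 counts, *Kdm5c* 37 and 38, and *Ncoa1* 38 and 48, with rate ratios whose intervals included 1. By log-fold, however, *Ncoa1* (0.41) was 1 of the 5 above 0.3. As a description over the 82 uninjected cells, the genes whose share of a cell's counts ran most alike to the summed share of the members included *Xbp1* (Spearman's rho 0.385), a transcription factor of the unfolded protein response, and *Elof1* (0.380), a transcription elongation factor. The median rho of the 2639 genes compared was 0.061. All shares come from the same cells and share their depth. Both genes had more counts in columns 1 to 6 than in columns 7 to 12, with 60 and 8 for *Xbp1* and 430 and 62 for *Elof1*, and in the treated library they had 1 and 0 counts.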

How the data were processed

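Single cones were sequenced by an adapted SMARTseq2 and MARS-seq protocol. The authors removed PCR duplicates by a UMI and the mapping position, counted reads per gene with featureCounts on a Gencode annotation, summed 3' and 5' counts, and deposited the whole-number counts unnormalized, over 17774 genes and 151 cells. The submitters' processing notes name the build as GRCh38, a human number, for these mouse data. Positions here come from GENCODE on GRCm38. Depth per cell sets the precision, and the intervals cover counting error only.

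The filter of the study's methods was applied again (a gene needed a count in 3 cells, a cell needed 200 genes and no more than 5% mitochondrial counts), leaving 15947 genes in 146 cells. No doublet caller and no batch correction was run. Each cell was scaled to 10000 counts and averaged, and log-folds are differences of ln(mean + 1) between sets of cells. The limit was 0.3, for genes found in 10% or more of the cells of 1 of the sets. Rates are summed counts over the total of the same cells. Intervals at 95% are exact Poisson for sums, exact binomial for shares and exact conditional for rate ratios. Shares at equal depth are expected values over all draws of 867 counts, the 10th percentile. A gene at 0 in a library kept its 0 in ratios and log-folds. A floor of 3 expected counts was used to judge whether a lower rate could show. The members, gene lists, markers and the split of the plate were chosen with earlier results of these data known. All members are named, listed genes with at least 50 counts in either library are named with values, and the 3 most alike genes were taken from genes found in 25% or more of uninjected cells. The result of 1 of these is not reported here. The subset of treated cells by cone marker counts was added after seeing the data, as were 2 settings named with the alternatives. Calculations used Python 3.11.15, numpy 2.4.6, pandas 2.3.3 and scipy 1.17.1 and were tested on simulated data.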

Additional observations from a re-analysis of the deposited data

How the results depend on the processing

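The count of members below -0.3 was 3, and 2 to 4 under every alternative run, with 2 at a limit of 0.5. The share of all genes past the limit was computed only for the main setting (24% below) and for median-ratio size factors. The counts under the other alternatives therefore have no background beside them and are not read as a result about the members. A pseudocount of 0.1 moved the library log-folds to -1.63 (*Kmt2d*), -1.13 (*Ash2l*), -2.26 (*Dpy30*), 1.12 (*Paxip1*) and -0.64 (*Kmt2c*, then past the limit). The count above 0.3 was 1 and became 0 with summed counts, with median-ratio size factors, in columns 7 to 12 alone and at a limit of 0.5. With median-ratio size factors 33.99% of all genes lay below -0.3 and 8.14% above 0.3. The rate ratio of the summed members between the libraries, 0.365, was 0.205 with median-ratio size factors and 0.350 to 0.401 under the 6 other alternatives. Between the sides of the uninjected plate the ratio of 0.545 turned to 1.08 when every cell was thinned to the same depth, since each cell then has equal weight and well A8 holds 18 *Dpy30* counts among 1409. Under the other alternatives it was 0.484 to 0.565. Shares of cells with any member went from 73.2% to 22.9% (uninjected), 34.4% to 15.6% (treated), 82.1% to 30.4% (uninjected, columns 1 to 6) and 65.1% to 16.1% (columns 7 to 12) when thinned. Of the log-folds of single members, 45 of 63 between the libraries and 37 of 49 between the sides stayed within the 95% counting interval around the main value, and none beyond 0.3 changed sign. Within 0.3, *Kmt2c* between the libraries (-0.296) was 0.28 in columns 1 to 6 alone, and *Dpy30* between the sides (0.24) was -0.42 to -1.02 under 4 alternatives. *Ncoa6* between the libraries (0.07) was -0.03 in columns 1 to 6 alone, and *Rbbp5* between the sides (0.01) was -0.14 without the filters. The log-folds without the highest cell of each library and the ratio with a minimum of 500 genes per cell between the libraries were chosen after seeing the data. No paired analysis was possible because each condition is 1 library. With 28 member counts in the treated library, a member with fewer than 3 counts expected there, *Rbbp5* (0.749) or *Ncoa6* (1.12), could not show a lower rate. 2 member counts lay in the 5 cells left out.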
